A study of Homo sapiens with 2 samples.

Results

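Sites of Musashi-2 (MSI2), which binds RNA and regulates the translation and stability of messages, were mapped by CLIP-seq in 2 replicates of NB4 cells, a human line established from acute promyelocytic leukaemia. In CLIP-seq, ultraviolet light links a protein to the RNA it touches, an antibody recovers the protein, and the attached RNA fragments are sequenced. Both replicates belonged to 1 group, with the same cell number, antibody and crosslinking dose (400 mJ per square centimetre), and the labels tell them apart by their number alone. Neither a control antibody nor an input nor cells lacking MSI2 was analysed here, so the only comparison is between the replicates, and MSI2 binding cannot be told apart from repeatable background.

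The genes described are 10 cyclins, cyclin-dependent kinases (CDKs) and regulators of them, out of 8801 gene IDs with a peak in either list. They were chosen by function, with earlier results of these data known, and found by their Ensembl gene IDs. They are CDK4 (ENSG00000135446), CDK6 (ENSG00000105810), CCND2 (ENSG00000118971), CCND3 (ENSG00000112576), RB1 (ENSG00000139687), CDKN1B (ENSG00000111276), CCNE2 (ENSG00000175305), CCNA2 (ENSG00000145386), CDK1 (ENSG00000170312) and WEE1 (ENSG00000166483). They held 62 of the 25920 peaks of replicate 1 and 68 of the 25243 peaks of replicate 2. A peak list holds sites and no expression level, so the identity of the line was not checked against marker genes.

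In a dividing cell, D-type cyclins bind CDK4 and CDK6, and these kinases begin the phosphorylation of the retinoblastoma protein RB1, which otherwise holds back the E2F factors that switch on genes for DNA replication. E- and A-type cyclins then carry the cell into and through S phase, CDK1 drives entry into mitosis, WEE1 restrains CDK1 by phosphorylating it, and the inhibitor p27, the product of CDKN1B, binds cyclin-CDK complexes. Several of these messages are short-lived or carry long untranslated regions, and CDK6 and D cyclins are widely used by blood progenitors and leukaemia cells.

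Every peak has a deposited p-value, which is the authors' own, and a whole number at the end of its name, called the tally here. No header or label explains the tally; it was never under 3, and it is treated here as a rough measure of how many reads a peak rests on. The sum of tallies was 155598 in replicate 1 and 133644 in replicate 2, and the depth of sequencing behind them is unknown. The 10 genes took 516 of that sum, or 0.332%, in replicate 1 and 451, or 0.337%, in replicate 2. A peak counts as shared where a same-strand peak of the other replicate overlaps it by at least 1 nt, and a shared peak of replicate 1 is called reproducible. Positions are those of the hg19 build, counted from 1.

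All 10 genes had peaks in both libraries, and 9 of them had at least 1 reproducible peak. Over all gene IDs of either list, 63.1% had peaks in both and 45.5% had a reproducible peak. Among the 5552 gene IDs found in both lists, the second share was 71.9%. The members were chosen with earlier results of these data known, so their presence in both lists may come from that choice. CCNE2 was the member with no peak at a common position. CCND2 and CDK6 had 5 or more reproducible peaks, as did 5.02% of all gene IDs. These genes together held 32 of the 62 member peaks in replicate 1 and 35 of the 68 in replicate 2, with 62.4% and 67.4% of the members' summed tally.

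**Figure D1:**
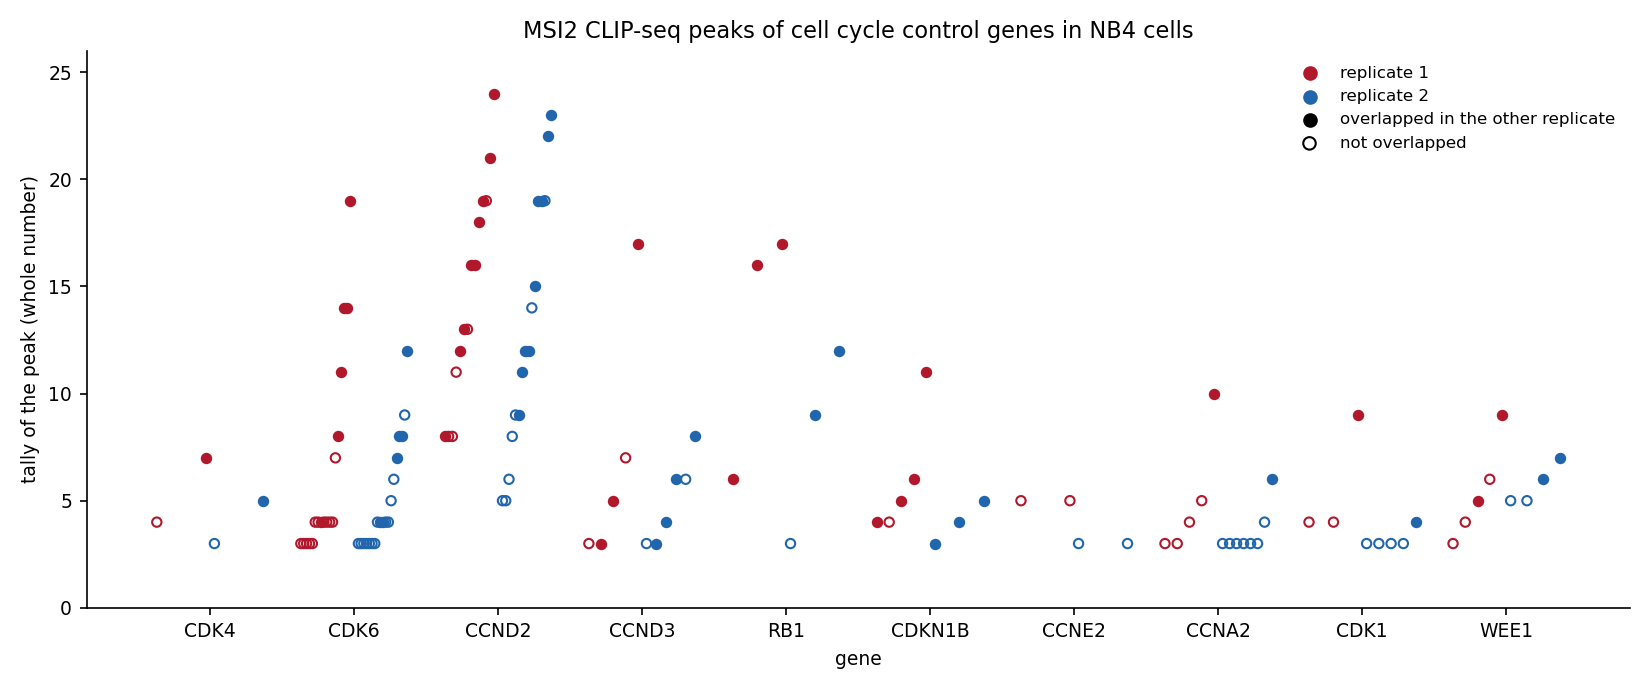
Each point is 1 peak, placed by its gene (horizontal axis) and its tally (vertical axis), in red for replicate 1 and blue for replicate 2. Filled points are peaks overlapped in the other replicate and open points are not. CCND2 has tallies of up to 24 in replicate 1 and 23 in replicate 2, and both CCNE2 columns hold open points only.

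CCND2, the gene of cyclin D2, had the highest summed tally of the 10, both in total and per kilobase of the stretch that held its sites. It carried 14 peaks with a summed tally of 206 in replicate 1 and 16 peaks with a summed tally of 208 in replicate 2. By summed tally, which is not scaled by transcript length, it ranked 28 of 7252 gene IDs in replicate 1 and 21 of 7101 in replicate 2. All but 1 of these peaks lay on the plus strand of chromosome 12 between 4409275 and 4414513, a stretch of 5.24 kb at the 3′ end of the gene's peaks. Per kilobase of this stretch there were 2.67 peaks and a tally of 39.3 in replicate 1, against 2.86 peaks and 38.7 in replicate 2. The exception was a 12-nt peak of replicate 2 at 4383189 to 4383200, with a tally of 5, which lay 31.3 kb from the 3′ end and had no partner.

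At CCND2, 9 sites recurred, in groups spread along the whole stretch. The highest by its weaker library was at 4411447 to 4411522, with a tally of 21 in replicate 1 and 22 in replicate 2. Near the 3′ end, 3 reproducible peaks stood side by side between 4413297 and 4413606. The first of these, at 4413297 to 4413354, had tallies of 13 and 9 in replicates 1 and 2. The next, at 4413373 to 4413434, had the highest CCND2 tally of replicate 1, 24, beside 19 in replicate 2. The last, at 4413533 to 4413606, had the highest of replicate 2, 23, beside 18 in replicate 1. These 3 sites thus had no common order of replicates in their tallies.

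Of the other reproducible CCND2 peaks, 4 had inner intervals, the short deposited segments within peaks, centred within 5 nt of each other in the libraries. At the 5′ side of the stretch, the peak at 4409435 to 4409495 began at the same base in both libraries, with tallies of 19 and 12 in replicates 1 and 2. The peak at 4409584 to 4409643 had its inner interval centred on the same base in both, with tallies of 16 and 12. In the middle, the peak at 4410768 to 4410806 had tallies of 12 and 11, and the peak at 4410989 to 4411034 had 16 and 15. The exception was at the 3′ end, where the peak at 4414267 to 4414282 was 16 nt wide with a tally of 8 in replicate 1, while its replicate 2 partner ran from 4414236 to 4414342 with a tally of 19. Their inner intervals were centred 41 nt apart, the most among the CCND2 pairs. Pairs of other members were also far apart, with 42 nt at the RB1 peak from 49055754 and 33 nt at the CDK6 peak from 92239000. No label says whether the inner interval marks a summit.

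CCND2 also held strong sites that did not recur. In replicate 1 the peak at 4409275 to 4409354 had a tally of 19, and in replicate 2 the peak at 4412255 to 4412348 had a tally of 19, each with no partner. Between a peak ending at 4411872 and one beginning at 4413297 replicate 1 listed nothing, and replicate 2 listed 3 peaks there, of which the other 2 had tallies of 8 and 6. Among all 10 genes, the unshared peaks with a tally of 10 or more, 3 in replicate 1 and 2 in replicate 2, were all in CCND2. A position without a listed peak is not a position without reads, since the lists hold only what passed the authors' peak calling. The lowest CCND2 tally was 8 in replicate 1 and 5 in replicate 2, although peaks with a tally of 3 were listed for other genes. Of the 467 gene IDs with 10 or more peaks in replicate 1, 5 including CCND2 had a lowest tally of 8 or more, and its median of 14.5 ranked 5 among the 467. In replicate 2, 29 of 456 such gene IDs had a lowest tally of 5 or more, CCND2 included. The CCND2 median of 12 ranked 12 among the 456. The lists hold only peaks with a deposited p under 0.05. Whether this cut set a higher lowest tally for CCND2 than for other genes was not tested.

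**Figure D2:**
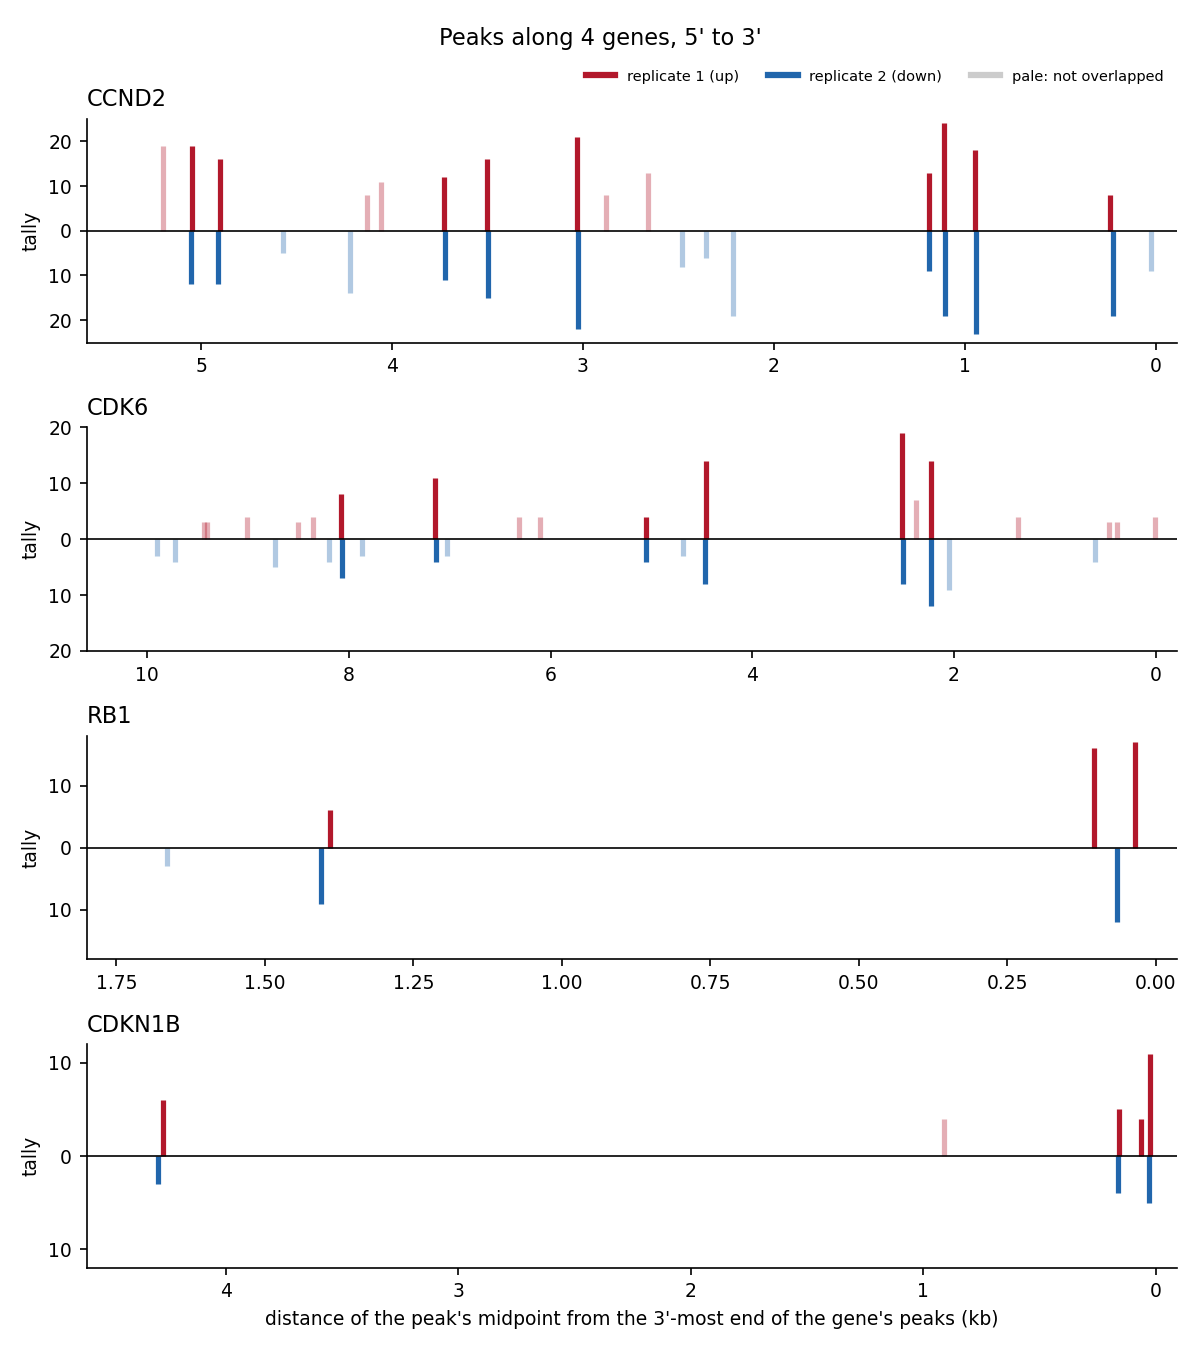
Each line is 1 peak of CCND2, CDK6, RB1 or CDKN1B, placed by the distance of its midpoint from the 3′-most end of that gene's peaks in kb (horizontal axis, 5′ on the left), with its tally as height (vertical axis), replicate 1 upward in red and replicate 2 downward in blue. Dark lines are overlapped in the other replicate and pale ones are not. The 9 recurrent CCND2 sites face each other along the 5.24 kb stretch, and the CDK6 and CCND2 peaks that lie further to the 5′ side are beyond the axes.

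CDK6, the kinase partner of D cyclins, had the most peaks of the 10 genes, but most were low. It carried 18 peaks with a summed tally of 116 in replicate 1 and 19 peaks with a summed tally of 96 in replicate 2, with a median tally of 4 in each. By number of peaks it ranked 54 of 7252 gene IDs in replicate 1 and 48 of 7101 in replicate 2. The gene's peaks span 213 kb on the minus strand of chromosome 7, yet all 18 peaks of replicate 1 and 15 of the 19 of replicate 2 lay in the last 9.92 kb, from 92234583 to 92244503. Peaks covered 6.27% of that stretch in replicate 1 and 6.71% in replicate 2. The other 4 peaks of replicate 2 lay 19.9, 120 and 213 kb from the 3′ end, a pair of them touching end to end. The highest of these, at 92354961 to 92355042, had a tally of 6, and none had a counterpart in replicate 1.

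At CDK6, 6 peaks were reproducible, and they included the highest peak of each library. The highest by its weaker library was at 92236785 to 92236840, with tallies of 14 and 12 in replicates 1 and 2. Its neighbour at 92237059 to 92237130 had tallies of 19 and 8, and the peak at 92239000 to 92239079 had 14 and 8. At 92242630 to 92242684 the tallies were 8 and 7. These 4 sites were the ones with a tally of 7 or more in both libraries. At 92241690 to 92241758 the tallies were 11 and 4, a ratio of 2.75, which was the largest excess of replicate 1 over replicate 2 among the pairs of all members. A low site at 92239625 to 92239653 had a tally of 4 in each. Of the CDK6 peaks without a partner, the highest had a tally of 7 in replicate 1, at 92236946 to 92236977, and 9 in replicate 2, at 92236605 to 92236660. Both lay beside the leading pair of sites, so that the stretch from 92236605 to 92237130 held 3 peaks of each library.

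CDK4, the other kinase that D cyclins activate, had few sites. It had 2 peaks in each library within 1.02 kb of the minus strand of chromosome 12. The reproducible one, at 58145041 to 58145113, had tallies of 7 and 5 in replicates 1 and 2, and the unshared ones had tallies of 4 and 3.

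CCND3, the gene of cyclin D3, had 5 peaks with a summed tally of 35 in replicate 1 and 6 with 30 in replicate 2, on the minus strand of chromosome 6. Its leading site, at 41903136 to 41903277, had a tally of 17 in replicate 1, and its partner in replicate 2, at 41903146 to 41903218, had a tally of 8. At 142 nt, the peak of replicate 1 was the widest of all member peaks in either library. A low peak of replicate 1 at 41905093 to 41905124, with a tally of 3, was overlapped by 2 touching peaks of replicate 2, with tallies of 4 and 6. Another low site recurred far from the rest, at 41986177 to 41986226, 83.5 kb to the 5′ side of the end of the span, with tallies of 5 and 3. It was the most distant reproducible site from the 3′ end among the 10 genes. The highest unshared peaks had a tally of 7 in replicate 1, at 41902690 to 41902735, and 6 in replicate 2, at 41908108 to 41908130.

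RB1 had 3 peaks in each library, and all 3 of replicate 1 were reproducible, with tallies of 6, 16 and 17. RB1 is a long gene of many exons, and its peaks in both libraries lay within 1.68 kb of the plus strand of chromosome 13, from 49054215 to 49055891. Its leading site was listed in replicate 1 as 2 touching peaks, at 49055754 to 49055823 and 49055824 to 49055891, with tallies of 16 and 17. In replicate 2 a single peak at 49055774 to 49055878, with a tally of 12, overlapped both. The site at 49054475 to 49054528 had a tally of 6 in replicate 1 and 9 in replicate 2. The remaining peak, of replicate 2 at 49054215 to 49054238, had a tally of 3 and no partner. With the split site counted once, RB1 had 2 recurrent places.

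CDKN1B, the gene of p27, had 5 peaks with a summed tally of 30 in replicate 1 and 3 with 12 in replicate 2, on the plus strand of chromosome 12. As a share of each list's tally, this was the largest difference between replicates among the members, a log2 ratio of -1.10 for replicate 2 over replicate 1. Every peak of replicate 2 had a partner. At 12875129 to 12875181 the tally was 11 in replicate 1, and the replicate 2 partner at 12875128 to 12875174 had a tally of 5. That partner also met, by a single base, a touching peak of replicate 1 at 12875107 to 12875128 with a tally of 4. The site at 12875001 to 12875050 had tallies of 5 and 4. A further site lay apart, 4.24 kb to the 5′ side of the end of the span, at 12870877 to 12870940, with tallies of 6 and 3. The 1 unshared peak, of replicate 1 at 12874251 to 12874294, had a tally of 4.

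Of the cyclins of later phases, CCNA2 had 1 site in common between the libraries and CCNE2 had none. CCNA2, the gene of cyclin A2, had 5 peaks in replicate 1 and 8 in replicate 2 over 5.54 kb of the minus strand of chromosome 4, with summed tallies of 25 and 28. One site was reproducible, at 122738385 to 122738459, with tallies of 10 and 6 in replicates 1 and 2, and it was the highest of the gene in each library. The other CCNA2 peaks had tallies of at most 5 in replicate 1 and 4 in replicate 2. CCNE2, the gene of cyclin E2, had 2 peaks with a tally of 5 each in replicate 1, at 95892655 to 95892709 and 95893193 to 95893246 of the minus strand of chromosome 8. In replicate 2 it had 2 touching peaks with a tally of 3 each, between 95895078 and 95895119. The libraries thus placed CCNE2 peaks at different positions, with summed tallies of 10 and 6.

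Among the kinases of mitotic entry, CDK1 had 3 peaks in replicate 1 and 5 in replicate 2 on the plus strand of chromosome 10. Its reproducible site, at 62553902 to 62553951, had a tally of 9 in replicate 1 and 4 in replicate 2, and it lay at the 3′ end of a 9.44 kb span. The unshared CDK1 peaks had a tally of 4 in replicate 1 and 3 in replicate 2. WEE1, which phosphorylates CDK1 at an inhibitory site, had 5 peaks in replicate 1 and 4 in replicate 2 on the plus strand of chromosome 11, with summed tallies of 27 and 23. Its peaks were closely packed, with 4 in each library within 0.772 kb, from 9610338 to 9611109. The site at 9610427 to 9610478 had tallies of 9 and 7, and the site at 9610338 to 9610373 had 5 and 6. The highest unshared WEE1 peaks had a tally of 6 in replicate 1, at 9610594 to 9610635, and 5 in replicate 2. A single peak of replicate 1, with a tally of 3, lay 13.3 kb from the 3′ end.

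Taken over the 10 genes, 30 of 62 peaks, or 48.4% (95% Wilson interval 36.4% to 60.6%), were shared in replicate 1, where 35.7% of all peaks were. In replicate 2, 29 of 68, or 42.6% (31.6% to 54.5%), were shared, where 37.3% of all peaks were. The interval of replicate 1 lies just above the value of its whole list, and that of replicate 2 includes it. The intervals cover counting error only, since peaks of 1 gene share their transcript. The labels do not say that the replicates came from separate cultures, so their differences may be technical. The members' peaks also had higher tallies than those of the lists: 32.3% of member peaks had a tally of 10 or more in replicate 1, against 13.2% of all peaks, and 17.6% in replicate 2, against 9.53%. Each member peak was then given the rate at which its tally class was shared in the whole list. On that basis 49.4% would be shared in replicate 1 and 45.3% in replicate 2. The observed shares were thus not above the rates of peaks of like tally. This weighting was run only at the 1-nt overlap. CDK6 and CCND2 together had 15 of 32 peaks shared in replicate 1 and 15 of 35 in replicate 2, and the other 8 genes had 15 of 30 and 14 of 33.

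By tally class, member peaks followed the lists within the width of their intervals. With a tally of 10 or more, 17 of 20 member peaks, or 85.0% (64.0% to 94.8%), were shared in replicate 1 against 87.1% of all peaks, and 10 of 12, or 83.3% (55.2% to 95.3%), in replicate 2 against 89.4%. With a tally of 3, 1 of 10 member peaks was shared in replicate 1 and 2 of 24 in replicate 2, or 10.0% and 8.33%, against 11.9% and 15.5% of all peaks. The class of tally 4 differed most between the libraries, with 14.3% (4.01% to 39.9%) of 14 member peaks in replicate 1 and 55.6% (26.7% to 81.1%) of 9 in replicate 2, against 24.7% and 34.7% of all peaks.

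**Figure D3:**
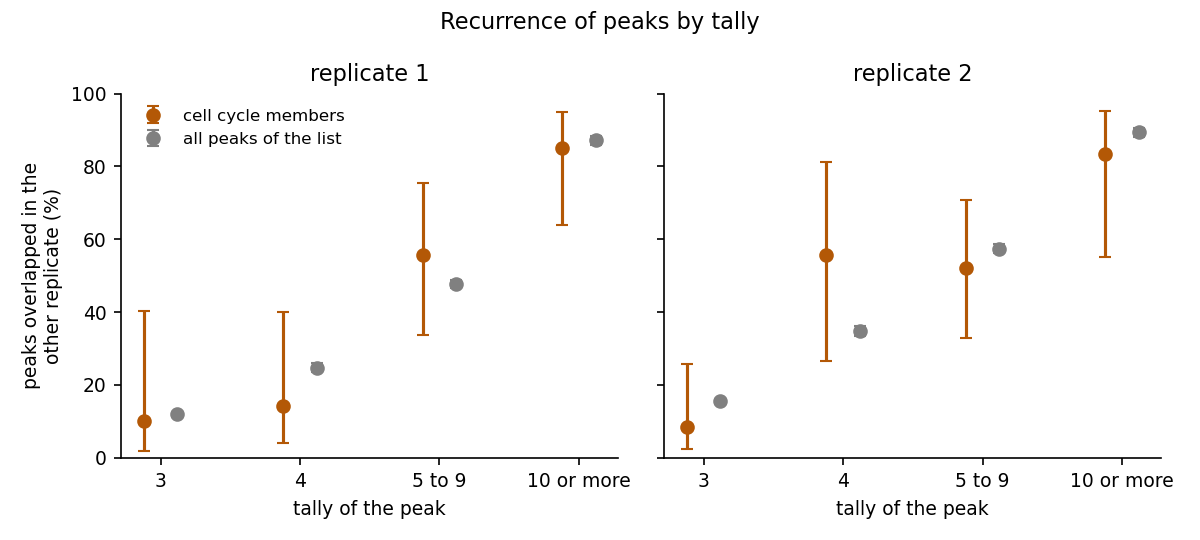
The vertical axis is the percent of peaks overlapped in the other replicate and the horizontal axis is the tally class, with 1 panel per replicate. Orange points are the member peaks and grey points all peaks of the list, with 95% Wilson intervals. The grey points lie inside the orange intervals in every class, and both are lowest at a tally of 3 and highest at 10 or more.

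The heights of the recurrent sites went together. Over the 31 overlapping pairs of member peaks, tallies in the libraries had a Spearman rho of 0.75, as a description over pairs that share genes and libraries. Over all 12529 pairs of the lists it was 0.62. The 12529 pairs came from 9246 peaks of replicate 1 and 9405 of replicate 2, so many peaks enter several pairs. The 31 member pairs came from 30 and 29 peaks, so the 2 sets of pairs are weighted differently. The tally was higher in replicate 1 in 22 pairs, higher in replicate 2 in 8 and equal in 1. Tallies of pairs were not scaled to the sum of each list, which was 155598 in replicate 1 and 133644 in replicate 2. The median log2 ratio of replicate 2 over replicate 1 was -0.36 (SD 0.65, over pairs) for the members and -0.25 (SD 0.73) for all pairs, so both leaned toward replicate 1. Between the centres of the inner intervals the median distance was 7 nt for the members and 7 nt for all pairs, and it was at most 10 nt in 64.5% of member pairs, against 68.2% of all.

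**Figure D4:**
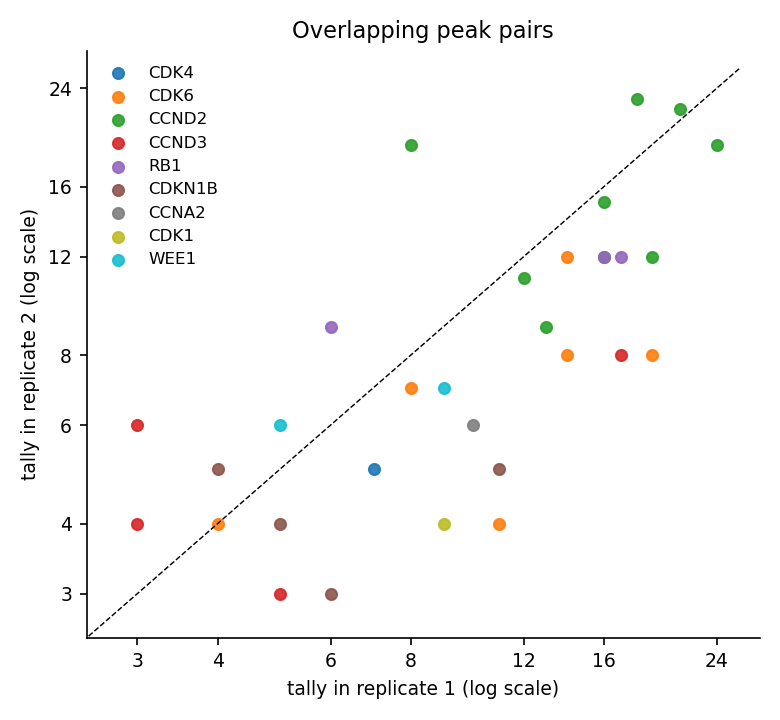
Each point is an overlapping pair of member peaks, coloured by gene, with its tally in replicate 1 (horizontal) and in replicate 2 (vertical), both on log scales, and some points coincide. The dashed line marks equal tallies. More points lie below it (22) than above it (8). The upper right holds mostly CCND2 pairs, beside pairs of RB1 and CDK6.

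Position along the genes was described by joining peaks of both libraries into runs wherever the gap was at most 2 kb. CDK4, CCNA2, CCNE2 and RB1 had a single run and so give no direction. In the other 6 genes, the 3′-most run held 46 of 50 peaks, or 92.0%, in replicate 1 and 44 of 53, or 83.0%, in replicate 2. Over all gene IDs with several runs, the 3′-most run held 51.0% of 19510 peaks in replicate 1 and 48.0% of 18921 in replicate 2. Those peaks came from 4064 and 4027 gene IDs, so they were fewer per gene than in the 6 members. A gene ID with 2 peaks far apart has 1 of them in its 3′-most run by construction. CDK6 and CCND2 held 32 of the 50 member peaks and 35 of the 53, so the member shares rest largely on those genes, and the difference from all gene IDs was not tested. Of the shared peaks of the 6 genes, 23 of 25 lay in the 3′-most run in each replicate, against 63.4% and 63.1% over all such gene IDs in replicates 1 and 2, and the exceptions were the distant CCND3 and CDKN1B sites. Positions were also put on a scale from 0 at the 5′-most to 1 at the 3′-most peak of a gene. The median over 9 genes of the shared peaks' median position was 0.956 in replicate 1 and 0.963 in replicate 2. These 9 genes include CDK4, CCNA2 and RB1, which had a single run. No such value was computed over all gene IDs, so the position is not compared with the lists. RB1 was the gene whose value depended on the library, with 0.94 in replicate 1 and 0.56 in replicate 2, where the leading site counts once. These ends are set by the peaks themselves and not by an annotation, so no statement on exons, introns or untranslated regions is made. In CDK1, CDK4, CDKN1B and RB1 the 3′ end was the edge of a shared peak, so values near 1 are partly fixed by construction. No member interval was also listed under another gene ID, and no peak of another gene ID lay inside the span of a member on either strand.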

How the data were processed

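The data are 2 peak lists, 1 for each replicate. The submitters' processing notes name the hg19 build and 3 tools: STAR 2.3.0e, Bowtie 1.0.0 and cutadapt. The names of the deposited lists record trimming of poly(A) and adapter sequence and removal of duplicate reads. The sources used here do not name the peak caller. Each peak carries a p-value computed by the authors, which was under 0.05 throughout the deposited lists. It was used only to describe and filter peaks within a list.

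The 10 members and all lists were chosen with earlier results of these data known. Peaks were taken by gene ID, and overlap was computed with pandas 2.3.3 and NumPy 2.4.6 in Python 3.11.15 (intervals with SciPy 1.17.1, plots with matplotlib 3.10.9), after the overlap step was tested on simulated data. There is 1 group with 2 libraries, so no test between conditions was run. Shares carry 95% Wilson intervals. Of the reproducible peaks, a rule took the 25 highest by the weaker library for naming, and the other 5 were described after their values were seen: 2 of CCND3, 2 of CDKN1B and the CDK6 site with equal tallies. The runs of peaks and their shares over all gene IDs, the sharing weighted by tally, and the comparison without CDK6 and CCND2 were added after seeing the data. Also not planned in advance were the ranks of CCND2 by lowest and median tally and the comparison of deposited p at high or equal tallies. A list of 66 further cell cycle genes was not analysed, because the tables used here do not pair their symbols with gene IDs. No genome of the hg19 build was used, so no site sequence or motif is reported.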

Additional observations from a re-analysis of the deposited data

How the results depend on the processing

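Of 38 recomputed values, 27 stayed within the margin set for them. The margin was the 95% Wilson interval of a share, 1.5 times for a count, and the standard deviation between replicates for the position. Some outcomes were fixed in advance. Matching under the same gene ID alone could not change the members, since all 31 pairs had the same ID. Leaving out intervals under several IDs could not either, since no member interval had another. The replicate 2 position could only fall outside its margin, which was computed from that same value. The 27 also include list rates weighted by member tallies, 49.4% and 45.3%, which are not recomputed member shares. Leaving out CDK6 and CCND2 left 15 of 30 peaks shared in replicate 1 and 14 of 33 in replicate 2. Extension of peaks by 100 nt, a looser overlap by construction, raised the shares to 74.2% and 64.7%, against 48.5% and 49.9% of all peaks. With lists kept to the stronger 50% by p, the share was 57.9% in replicate 1, against 44.5% of all peaks. The share of replicate 2 was 55.3%, against 46.3%. With the strongest 10% the share of replicate 2 was 71.4%, or 5 of 7, against 57.1% of all. That of replicate 1 was 46.2%, or 6 of 13, below the 55.1% of all. A tally of 5 or more gave 57.9% in replicate 1, against 43.7% of all, and 60.0% in replicate 2, against 56.2%. These shorter lists left 38, 10 and 36.5 member peaks per list by construction, against 65 in full, and the strongest 10% left 3 genes with a reproducible peak, against 9. Leaving out 1 replicate left 62 or 68 peaks. The median position was 0.963 from replicate 2 and 0.945 over all peaks of replicate 1, against 0.956. No paired analysis was possible because there is 1 group. Many member peaks rest on a tally of 3 or 4, and the total reads are not known, so an unlisted site may lie below the threshold of calling.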

Other observations

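High CCND2 peaks were less often among the strongest by deposited p than other high peaks of the lists, as a description of these values. The comparison was not planned in advance. In replicate 1, CCND2 had 11 peaks with a tally of 10 or more, and 5 of them, or 45.5%, were in the strongest 10% of the list by p. For the other 9 members this held for 7 of 9 such peaks, and for all such peaks of the list it held for 73.0%. In replicate 2 this held for 5 of 10 CCND2 peaks, against 2 of 2 for the other members and 2044 of 2405 for all. At a tally of 19 in replicate 1, the deposited p was 1.02e-06 and 2.45e-07 for the CCND2 peaks at 4409275 and 4409435, against 4.67e-12 for the CDK6 peak at 92237059. At a tally of 8 in replicate 1 the order was mixed, with 0.000301, 0.000558 and 0.00719 for CCND2 peaks of 16, 19 and 36 nt. The CDK6 peak of that tally, 55 nt wide, had 0.000445. At a tally of 8 in replicate 2, the CCND2 peak had 0.000419, against 8.11e-05 and 0.000119 for CDK6 and 4.85e-05 for CCND3. Their widths differed, with 20 nt for CCND2, 47 and 81 nt for CDK6 and 73 nt for CCND3. At a tally of 9 in replicate 2, CCND2 peaks had 0.00109 and 0.00501, against 2.61e-05 for CDK6 and 2e-05 for RB1. The CCND2 peaks were 35 and 48 nt wide, the CDK6 peak 56 nt and the RB1 peak 94 nt. Why the p-values differ was not tested.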
